A study of Micractinium conductrix and Chlorella sorokiniana with 12 samples.

Results

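The genes described here are 192 of the 9349 genes in the expression table of the green alga Micractinium conductrix, or 2.05%, whose transcripts were less abundant in cells grown at pH 5.7 than in cells grown at pH 7.6. They were chosen by their measured levels in the same 6 libraries that are described below. A gene was a member if its highest value at pH 5.7 lay below its lowest value at pH 7.6, if its mean at pH 7.6 was at least 5 FPKM (fragments scaled to transcript length and library size), and if that mean was at least 2 times the mean at pH 5.7. The pH difference of the members is therefore a property of the choice. It is given as a description. Calls from a fit on the same libraries are counted, but only libraries that took no part in a choice can give a test.

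Strain SAG 241.80 of M. conductrix was isolated as an alga living inside the ciliate Paramecium bursaria, and here it was cultured without its host. Cells of this single strain were grown in a modified freshwater SAG medium at pH 5.7 (libraries 2, 4 and 57) or at pH 7.6 (libraries 1, 3 and 76), and no other treatment is given. The stock of this strain was kept on a solid medium of pH 7.6. Polyadenylated RNA from whole-cell lysates was sequenced, and no label says whether the 3 libraries of a pH came from separate cultures. In whole-culture RNA, a lower level in every cell cannot be told apart from fewer cells that carry the transcript.

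Algae of this kind are known as symbionts that hand sugar, mainly maltose, to their host, and release of maltose is known to be stronger in acidic medium. The pH outside a cell also sets how much of the dissolved inorganic carbon is carbon dioxide or bicarbonate, and it sets the proton gradient across the plasma membrane that drives the uptake of many nutrients. Genes of transport and nutrient uptake are therefore of general interest in such a comparison. The gene identifiers are running numbers, and the files pair them with no name, product or position, so no role can be given to any member. Only 2 identifiers are printed, and the other members are described by their rank.

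At pH 7.6 the members' means ran from 5.02 to 2927 FPKM, with a median of 30.1 FPKM. At pH 5.7 their means ran from 0.0182 to 785 FPKM, with a median of 7.26 FPKM. Library by library, the median member stood at 25.8, 36.6 and 24.9 FPKM in libraries 1, 3 and 76 and at 6.68, 7.25 and 7.85 FPKM in libraries 2, 4 and 57. Together the members made up 2.65%, 3.42% and 2.85% of all FPKM in the pH 7.6 libraries and 0.649%, 0.690% and 0.729% in the pH 5.7 libraries. The 10 members that were most abundant at pH 7.6 carried 57.4%, 56.2% and 55.2% of the members' FPKM in libraries 1, 3 and 76, so the summed level mostly follows these few transcripts.

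**Figure D1:**
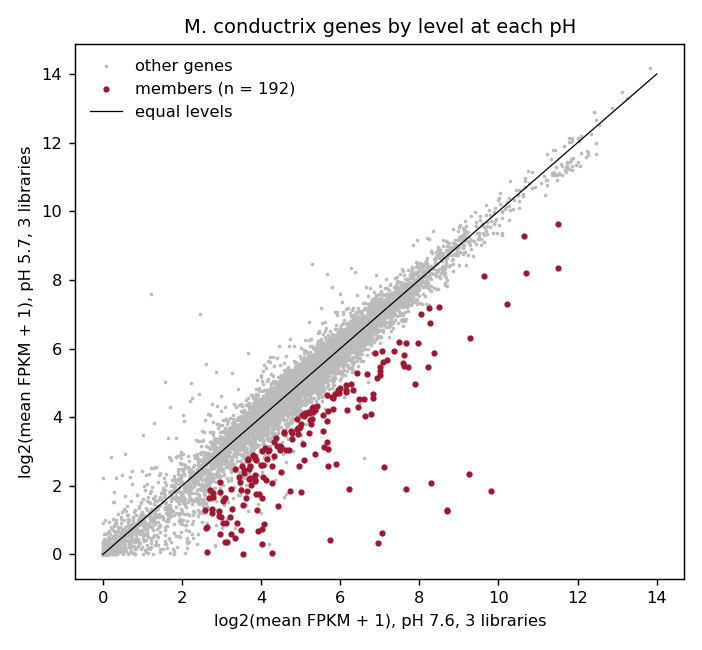
Each point is 1 gene of the M. conductrix table, with log2(mean FPKM + 1) at pH 7.6 on the x axis and at pH 5.7 on the y axis, 3 libraries each, and the 192 members in red. Members lie along the lower edge of the cloud over mean levels of 5.02 to 2927 FPKM at pH 7.6, and a small number at high pH 7.6 levels lie far below it.

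Most members differed by a small multiple. The ratio of the mean at pH 7.6 to the mean at pH 5.7 was 2 to 3 in 89 members, 3 to 4 in 27, 4 to 8 in 42, 8 to 16 in 12, and 16 or more in 22. Its median was 3.34, and its quartiles were 2.45 and 6.11. On the scale of log2(FPKM + 1), which understates differences of low values, the median difference of pH 5.7 minus pH 7.6 was -1.53, against 0.01 over the 8500 genes that averaged 1 FPKM or more. All 192 members passed this filter, which their minimum level guaranteed. The median ratio was 5.23 in the 30 members at 5 to 10 FPKM at pH 7.6, 2.86 in the 119 members at 10 to 100 FPKM, 3.82 in the 38 members at 100 to 1000 FPKM, and 5.60 in the 5 members above that. The 22 members with a ratio of 16 or more numbered 5, 8, 9 and 0 in these ranges.

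The members just inside the limit of 2 were not set apart from the genes just outside it. The 5 nearest inside had ratios of 2.001 to 2.02 and the 5 nearest outside had ratios of 1.98 to 1.999, at means of 9.20 to 31.8 and 14.8 to 78.1 FPKM at pH 7.6. At the limit on the level, the 5 nearest members lay between 5.02 and 5.47 FPKM and the 5 nearest genes outside between 4.73 and 4.96 FPKM. Among all genes of the table, 993, or 10.6%, had pH groups that did not overlap with the pH 5.7 values lower. Of these, 682 had the required level and a ratio under 2, and 95 had the required ratio and too low a level. A further 135 genes met the level and the ratio but had overlapping groups. The gap between the groups was often narrow in the members too. The lowest pH 7.6 value was under 1.1 times the highest pH 5.7 value in 11 members, at least 2 times it in 73 and at least 4 times it in 29.

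**Figure D2:**
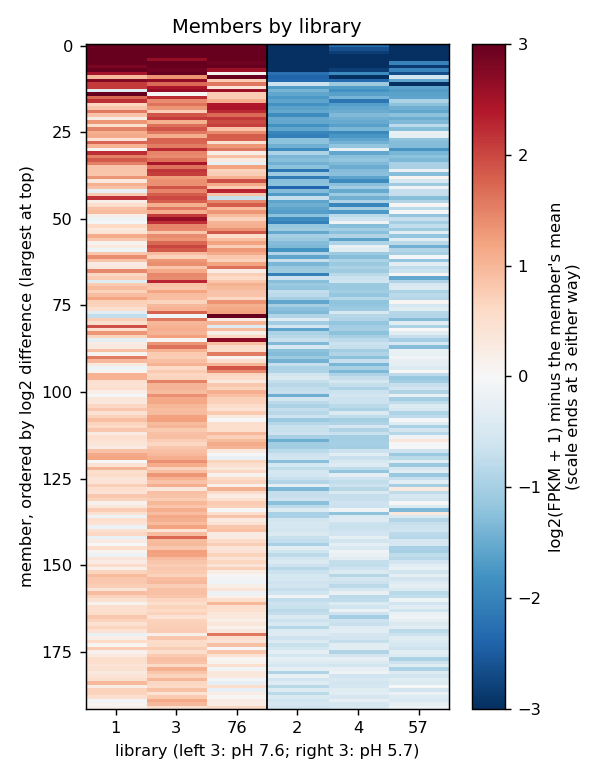
Rows are the 192 members, ordered by their log2 difference between the pH groups with the largest at the top, and columns are the 6 libraries. Colour gives log2(FPKM + 1) minus the member's mean over the libraries, and the strongest contrast is in the top rows, while library 3 is the highest of the pH 7.6 libraries in 113 rows.

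On the scale of log2(FPKM + 1), the largest difference of all members belonged to g6354. By the ratio of means, which reached 598 in the members, others with lower levels ranked above it, since its own ratio was 342. This gene stood at 1275, 1081 and 327 FPKM in libraries 1, 3 and 76, and at 0.127, 7.47 and 0.2498 FPKM in libraries 2, 4 and 57. It was high in all pH 7.6 libraries and near 0 in all pH 5.7 libraries, and its lowest pH 7.6 value was 43.7 times its highest pH 5.7 value. Within the pH 7.6 group library 76 held only a part of the level of the others, and within the pH 5.7 group most of the residual signal came from library 4. Its log2 difference was -8.39, and the SD between libraries on that scale was 1.07 at pH 7.6 and 1.64 at pH 5.7 (n = 3 each).

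The 8 members with the largest log2 differences, from -8.39 to -5.94, stood apart from the next, at -4.54, -4.30 and -4.12. The number 8 was read from this gap after the values were seen. Their lowest value in any pH 7.6 library was 74.6 FPKM, and their highest in any pH 5.7 library was 7.47 FPKM. The second in this order had 470, 389 and 389 FPKM in the pH 7.6 libraries (1, 3 and 76, in that order from here on) and 0.356, 3.59 and 0.242 FPKM in the pH 5.7 libraries (2, 4 and 57). The third was much like it, with 493, 362 and 396 FPKM against 0.900, 3.24 and 0.275 FPKM. Both of these, like g6354, had their highest pH 5.7 value in library 4. The sixth and the eighth had it in library 57 instead. The sixth had 385, 304 and 244 FPKM against 0.854, 1.77 and 7.07 FPKM, and the eighth had 264, 187 and 151 FPKM against 0.456, 2.54 and 5.37 FPKM. The low residual level therefore did not come from the same library in all of the 8.

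The fourth and the fifth carried consecutive running numbers. The fourth was the steadiest of the 8 at pH 7.6, at 597, 584 and 643 FPKM, an SD of 0.07 on the log2 scale, against 2.63, 5.78 and 3.98 FPKM at pH 5.7. Its numerical neighbour had 141, 74.6 and 154 FPKM against 0.145, 0.356 and 0.269 FPKM. Both were lowest in library 3 at pH 7.6 and highest in library 4 at pH 5.7. The seventh was listed at 0 in library 2 and had 0.718 FPKM in library 4 and 0.895 FPKM in library 57, whereas its pH 7.6 values were 96.5, 128 and 172 FPKM.

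**Figure D3:**
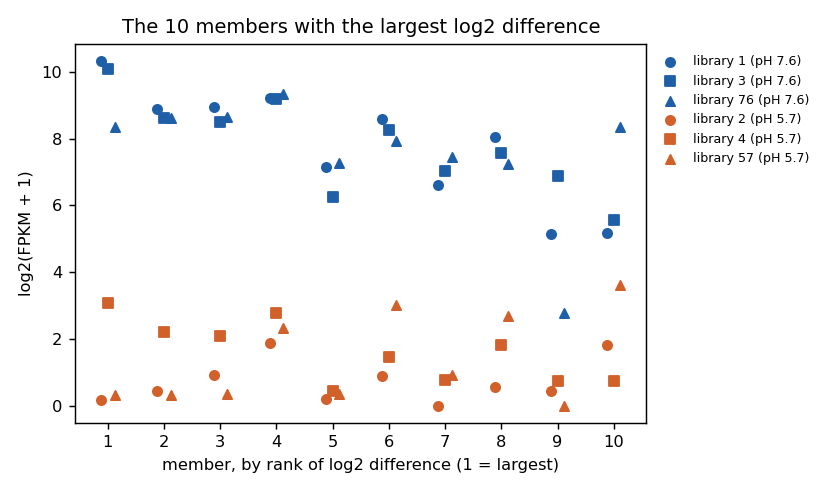
Points give log2(FPKM + 1) in each of the 6 libraries for the 10 members with the largest log2 difference, blue for pH 7.6 and orange for pH 5.7. For the first 8 the blue and the orange points are far apart, whereas the ninth and the tenth have blue points spread over a wide range.

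The ninth and the tenth were less uniform. The ninth stood at 34.3, 117 and 5.89 FPKM at pH 7.6 and at 0.349, 0.673 and a listed 0 FPKM at pH 5.7, so library 76 had by far its lowest pH 7.6 value. The tenth stood at 35.2, 46.2 and 326 FPKM at pH 7.6 and at 2.54, 0.678 and 11.3 FPKM at pH 5.7, with both its highest values in the libraries 57 and 76. The SD between pH 7.6 libraries was 2.05 for the ninth and 1.73 for the tenth on the log2 scale, wider than in any of the first 8.

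By abundance the order differed, and 3 members were among both the 10 largest differences and the 10 highest levels. The 8 largest log2 differences still belonged to abundant members. In order of difference, their ranks by level at pH 7.6 among the 192 members were 6, 11, 10, 9, 37, 14, 33 and 23. The most abundant member at pH 7.6 was g455, at 2714, 3662 and 2406 FPKM in libraries 1, 3 and 76 and at 924, 774 and 656 FPKM in libraries 2, 4 and 57. Its groups were well separated and it stayed an abundant transcript at pH 5.7. Its mean was 2927 ± 654 FPKM (SD, n = 3) at pH 7.6 and 785 ± 135 FPKM at pH 5.7, a ratio of 3.73. Over the 10 most abundant members the ratio ran from 2.55 to 342, with a median of 7.69.

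Library 57 set apart several of the other most abundant members. The second stood at 3532, 2672 and 2472 FPKM at pH 7.6 and at 525, 385 and only 65.1 FPKM in libraries 2, 4 and 57. The third went the other way, at 1343, 1900 and 1707 FPKM against 164, 167 and 553 FPKM, and so did the fourth, at 1381, 1816 and 1584 FPKM against 497, 468 and 910 FPKM. The value of library 57 was thus the lowest of its group in the second and the highest in the third and the fourth. By contrast, the seventh was nearly constant at pH 5.7, at 260, 283 and 286 FPKM, against 626, 948 and 816 FPKM at pH 7.6. The eighth was at 74.6, 75.2 and 86.4 FPKM there, against 544, 460 and 862 FPKM.

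At the low end, 16 members were below 1 FPKM in each of the pH 5.7 libraries. Their median mean at pH 7.6 was 12.4 FPKM and the highest 132 FPKM, so most were modest transcripts at either pH. In 6 members at least 1 library of pH 5.7 was listed at 0. Absolute depth is unknown, so values this low cannot be set against counting error. From the most frequent ratios among values under 0.3 FPKM, the depth of libraries 3, 76, 2, 4 and 57 was estimated at 0.951, 2.04, 0.758, 0.509 and 1.66 times that of library 1, each uncertain by a small whole factor. The pH 5.7 libraries 2 and 4 had the lowest of these estimates.

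With the pH contrast fitted over all genes, 68 members were among the 72 genes called lower at pH 5.7, where the call rate over all 8500 genes tested was 0.847% (limma fit without pairing, threshold of 0.05 on the Benjamini-Hochberg adjusted p). With libraries 1 and 2, 3 and 4, and 57 and 76 as pairs, 168 members were called, and 5.55% of all genes were called lower. Of the 10 largest log2 differences 8 were called without pairing and 10 with it. Of the 10 most abundant members these counts were 7 and 10. Without library 2, 3 or 4 the unpaired count of members was 12, 15 and 15. Over all genes the counts called lower there were also 12, 15 and 15, so calls fell across the whole table. The rule used this contrast, so nothing can be read from any of these counts about the members.

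Libraries that took no part in a choice gave a further view of the same measure. The rule was first applied to 4 libraries and the genes so chosen were then looked up in the pair left out. Of 186 genes chosen without libraries 3 and 4, 184 were lower in library 4 than in library 3, or 98.9%, and 166 were at least halved. Of 272 genes chosen without libraries 57 and 76, 247 were lower in library 57 than in library 76, or 90.8%, and 135 were at least halved. Of 361 genes chosen without libraries 1 and 2, 283 were lower in library 2 than in library 1, or 78.4%, and 171 were at least halved. Over all genes tested the shares that were lower were 47.99%, 50.9% and 45.9% in the same order, and the shares at least halved 6.98%, 5.25% and 4.42%. The median log2 difference of the chosen genes was -1.87, -0.89 and -0.72, against 0.02, -0.01 and 0.03 over all genes. With 1 library per pH in a pair, these values allow no test.

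**Figure D4:**
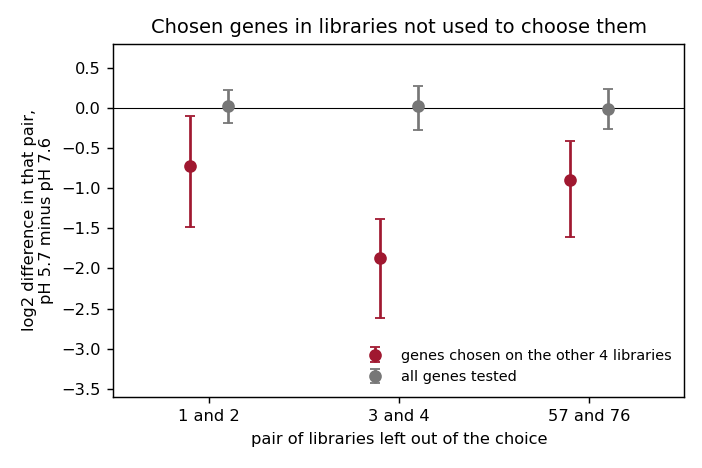
For each pair of libraries left out of the choice, points give the median log2 difference in that pair (pH 5.7 minus pH 7.6) and bars the quartiles, red for genes chosen on the other 4 libraries and grey for all genes tested. The red medians are -0.72, -1.87 and -0.89 and all grey medians lie within 0.03 of 0.

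The reverse split allowed a test. Genes were chosen in 1 pair alone, by a pH 7.6 value of at least 5 FPKM and at least 2 times the pH 5.7 value, and the other 4 libraries were fitted over all genes. Libraries 1 and 2 chose 257 genes, of which 239 were lower at pH 5.7 in the other 4 libraries, with a median log2 difference of -1.11. Libraries 3 and 4 chose 482 genes, of which 461 were lower, with a median of -0.90. Libraries 57 and 76 chose 360 genes, of which 332 were lower, with a median of -0.78. Over all genes tested between 46.5% and 49.5% were lower in these fits. After adjustment, 10, 8 and 20 of the chosen genes, or 3.89%, 1.66% and 5.56%, were called lower (limma, adjusted p under 0.05, no pairing), where the rates over all genes were 0.129%, 0.0941% and 0.376%. With the pairs as a replicate block the called genes numbered 102, 87 and 101, or 39.7%, 18.0% and 28.1%, against 4.66%, 1.11% and 3.69% of all genes. Every call without the block among these chosen genes was on a member. The members were chosen on all 6 libraries, including the 4 fitted here, so nothing can be read from this overlap. The direction thus held in most chosen genes, while few of them passed the threshold singly with 2 libraries per pH and no pairing.

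Within one pH the members were not uniform either, although differences between libraries of 1 pH are not fully independent of the choice. Every library enters the rule through the group means, so a high value in 1 library of pH 7.6 helps a gene to meet it. At pH 7.6 library 3 was the highest library for 113 members, library 76 for 42 and library 1 for 37, whereas over all genes tested the shares were 32.2%, 34.4% and 33.4%. Directly compared, 146 of 192 members, or 76.04%, were higher in library 3 than in library 1, against 48.4% of all genes tested, and the median difference was 0.42 against -0.01 on the log2 scale. Against library 76, library 3 was higher in all but 46 members. Between libraries 76 and 1 the members were nearly balanced, with 106 higher in library 76. Scaling the libraries to equal totals gave 163 members higher in library 3 than in library 1, but then also 66.4% of all genes. Equal upper quartiles gave 150 members against 50.5% of all genes, and quantile normalization 149 members against 44.9%.

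The 10 members with the largest differences mostly did not share this order. Of the 10 largest, 3 were higher in library 3 than in library 1, with a median of -0.25, and of the 8 that stood apart, 7 were higher in library 1. Among the first 48 members by log2 difference, 28 were higher in library 3, and in the following groups of 48 members 37, 41 and 40 were. The median differences of library 3 minus library 1 in these groups were 0.41, 0.52, 0.47 and 0.29, so the first 48 as a group were shifted too. Whether growth, culture or library preparation differed between libraries 1 and 3 is not given in the labels, and its part in these differences was not tested.

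**Figure D5:**
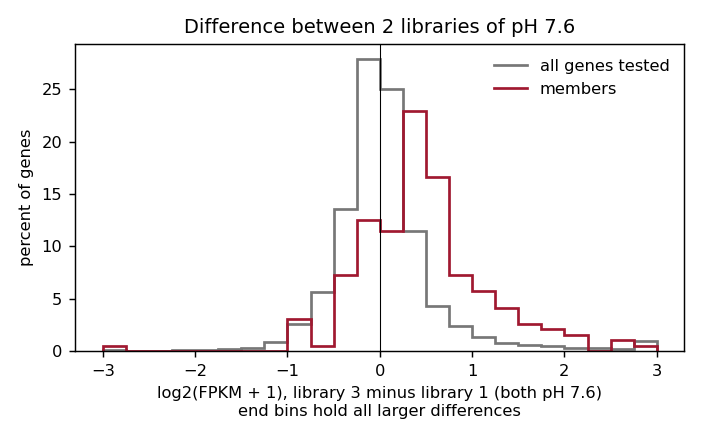
Lines give the percent of genes by the difference in log2(FPKM + 1) between libraries 3 and 1, both grown at pH 7.6, in red for the 192 members and in grey for the 8500 genes tested. The grey curve is centred near 0 and the red curve is shifted to the right, with medians of -0.01 and 0.42.

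At pH 5.7 the shift between libraries was smaller. Library 57 was the highest of its group for 104 members, against 39.0% of all genes tested, and it exceeded library 2 in 128 members and library 4 in 120. The median SD between libraries was 0.41 at pH 7.6 and 0.29 at pH 5.7 on the log2 scale, against 0.25 and 0.22 over all genes tested. With a pseudocount of 5 FPKM the order turned around at pH 5.7, at 0.18 in members against 0.19 over all genes tested, while at pH 7.6 the members stayed higher, at 0.37 against 0.21. A range of more than 1 on that scale occurred in 77 members at pH 7.6 and in 44 at pH 5.7, where 13.9% and 10.6% of all genes tested had such a range. Deviations from the group mean correlated within the pairs of libraries less across the 192 members, at 0.21, 0.35 and 0.27, than across the 8500 genes tested, at 0.60, 0.66 and 0.59. Values of 1 library share its depth and preparation, so these correlations are descriptive. The members were also chosen on these same libraries, and 108 of them averaged under 10 FPKM at pH 5.7. The part of the choice and of the low levels in the correlations was not tested.

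Running numbers of the identifiers were not used by the rule. Of the 192 members, 26, or 13.5%, had a number next to that of another member, forming 13 couples and no longer run, while 3.87% of the genes that are not members had a number next to a member's. The mirrored rule, for genes higher at pH 5.7, chose 74 genes. Of these, 4, or 5.41%, were next to another of them, against 1.55% of the remaining genes, so neighbouring numbers were not particular to the members. The sources used here do not say that the numbers follow the order of genes along the genome. Levels in a couple could be far apart: one couple stood at means of 7.46 and 202 FPKM at pH 7.6 with log2 differences of -1.44 and -1.47, and another at 87.0 and 8.45 FPKM with differences of -2.36 and -2.35. The log2 differences of these couples were the closest of all 13, and the widest gap in a couple was 1.47. In 10 of the 13 couples the log2 differences lay within 1 of each other, as they did in 65.4% of all possible combinations of members. The median gap was 0.59 in the couples and 0.65 over all combinations of members. Reads shared between neighbouring or similar genes cannot be judged from FPKM.

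For scale, the mirrored rule found 74 M. conductrix genes higher at pH 5.7. In the table of the free-living alga Chlorella sorokiniana, strain UTEX 1602, grown at the same pH values in a freshwater medium worded differently, the same rule found 126 of 9587 genes lower and 384 higher at pH 5.7. Genes of the species were not matched, so these counts are side by side only, and a difference between the species was not tested.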

How the data were processed

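The authors deposited 1 table per species with FPKM values per gene and library, not pooled (12 libraries in all, 3 per species and pH). Tools listed in the submitters' processing notes are FastQC, Trimmomatic, HISAT2, Picard and Cuffnorm. For versions, genome build, gene models, strand setting and the scaling between libraries, the sources used here give nothing. FPKM scale with transcript length and library, so they are not counts, and no count test was run. Libraries of M. conductrix had medians of 27.2 to 28.1 FPKM and between 8300 and 8494 genes of at least 1 FPKM.

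From these values the rule was applied to all genes. The contrast of pH 5.7 minus pH 7.6 was fitted with limma 3.58.1 in R 4.3.3 on log2(FPKM + 1) with a mean-variance trend, 2-sided, over the 8500 genes that averaged 1 FPKM or more in the 6 libraries, with Benjamini-Hochberg adjustment over all of them and a threshold of 0.05. No label names separate cultures, so a p-value reflects only how these libraries vary, which can be technical variation. Groups come from the pH in the labels. The pairs were read from library names only. Deviations from the group mean correlated within each pair across genes by 0.60, 0.66 and 0.59. The main counts come from fits without pairing, and the pairs entered as a block only in counts given beside them. The fits were tested on simulated data. Other computations used Python 3.11.15, numpy 2.4.6 and pandas 2.3.3.

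The members, the lists and the tests were chosen with earlier results of these data known. The identifiers printed are the most abundant member at pH 7.6 and the member with the largest log2 difference. Other members are given by rank: the 10 most abundant, the 10 with the largest difference and the 5 on either side of each limit. Groups of genes by product were not formed, because identifiers carry no names. Alternatives were other limits of the rule, pseudocounts, filters and scalings, the replicate block, and libraries or pairs left out.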

Additional observations from a re-analysis of the deposited data

How the results depend on the processing

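The 192 members became 379 with a ratio of at least 1.5, 103 with 3 and 76 with 4. Leaving out 1 library gave 172 to 410 genes, the highest without library 1, where 181 of the 410 were members, and 361 met the rule without libraries 1 and 2. Equal totals, equal upper quartiles and quantile normalization gave 170, 202 and 169 genes, of which 170, 192 and 168 were members. The 68 members called by limma became 168 with the replicate block and 22 with no filter on low values, and 12 to 58 when 1 library was left out. Over all genes, 72 were called lower in the main fit, 472 with the block and 30 with no filter. With 1 library left out, 12 to 64 of all genes were called lower. Genes chosen in 1 pair and called lower in the other 4 libraries numbered 10, 8 and 20 for libraries 1 and 2, 3 and 4, and 57 and 76. They became 102, 87 and 101 with the replicate block, which leaves 1 residual degree of freedom, and 1, 0 and 0 with no filter. Over all genes the counts called lower were 11, 8 and 32 in the main fits. They were 396, 94 and 314 with the block, and 3, 0 and 0 with no filter. The count for genes chosen in libraries 1 and 2 became 6 with a pseudocount of 0.1 FPKM, where 7 of all genes were called lower. With a ratio of at least 4, the share of chosen genes that were lower in the pair left out became 92.0% for libraries 1 and 2, 100% for 3 and 4, and 95.96% for 57 and 76. The median SD of members with pseudocounts of 0.1 and 5 FPKM was 0.43 and then 0.37 for the pH 7.6 libraries, and 0.36 and then 0.18 for those of pH 5.7, the last below the 0.19 of all genes tested, which turns around the order of members and all genes at pH 5.7. The log2 difference of g6354 was -9.83 and -6.80 with these pseudocounts. Members numbered next to another became 60 of 379 with a ratio of at least 1.5, 14 of 103 with 3, and 43 of 253 with a mean of at least 1 FPKM. These last alternatives, the scalings of library 3 against library 1, and a filter on the 4 libraries tested were added after seeing the data. Among the alternative values for the members and the chosen genes, 36 stayed within a set limit and 27 did not. For the named genes 14 stayed within it and 2 did not. In all, 50 of the alternative values, some of them given above, stayed within the set limit. For counts this was 1.5 times the main value, up or down, and for the named genes their spread between libraries. For shares of chosen genes it was a binomial interval of the main share. The spreads between libraries had no limit set and were counted as not staying. Neither named gene changed direction. The cause of the shifts was not tested. With depth unknown, levels near or below 1 FPKM cannot be set against counting error.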
